A study of Homo sapiens with 7 samples.

Results

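Intronic CTCF peaks without a G-quadruplex (G4) motif comprised 11275 of 33069 peaks in control K562 cells (34.1%) and 10532 of 32893 peaks in cells treated with pyridostatin (32.0%), counted on chromosomes 1-22 and X. These peaks were chosen by position and sequence alone. The peak centre had to lie inside a protein-coding gene, outside every annotated exon and more than 1 kb from every coding gene start and 3′ end, and the peak could overlap no G4 motif, here 4 runs of at least 3 G on either strand, with 1 to 7 nt in each loop. They are called intronic non-G4 peaks, or members, in what follows. K562 is an established human erythroleukaemia line, and all samples came from it without a genetic change. The untreated group held 2 CTCF immunoprecipitations and 1 IgG sample, and the treated group, given 10 μM pyridostatin (PDS, a ligand that stabilises folded G4s) for 24 h, held 2 CTCF and 2 IgG samples. For each condition the authors called 1 peak list from both replicates over IgG, so the lists give no replicate values and no sequencing depth. Shares are therefore given with Wilson 95% intervals, which cover counting error only, and no test between the conditions could be made. Fold enrichments are relative to each condition's own IgG and were compared between lists only as ranks.

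CTCF is a zinc finger protein that reads a long, directional DNA sequence, halts the cohesin ring as it extrudes chromatin loops, and so marks many loop anchors. Loops are preferentially anchored by sites that face each other, which makes the orientation of a site part of its function. Many CTCF sites lie within genes, where they can contact promoters, bound domains or, at some genes, slow RNA polymerase near alternative exons. A G4 is a four-stranded fold of G-rich DNA, and peaks without the motif are the sites where CTCF has no predicted G4 under it.

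The CTCF consensus was searched as CANNAGNNGGC, which is 11 letters long with 7 fixed and 4 open letters, on both strands of the 200 bp at the peak centre. Matches from intronic non-G4 peaks are printed here in the reading direction of the match, on GRCh37 (hg19), with the match in capitals and 20 bases to either side. The strand is that of the printed sequence. The opening set comes from the peaks with the largest folds, which were present in both lists.
CRYM (chr16:21312024-21312074, minus strand): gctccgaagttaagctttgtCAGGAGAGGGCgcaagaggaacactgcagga
TBC1D22B (chr6:37282812-37282862, minus strand): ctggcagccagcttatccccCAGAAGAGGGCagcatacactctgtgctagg
IQCG (chr3:197633004-197633054, plus strand): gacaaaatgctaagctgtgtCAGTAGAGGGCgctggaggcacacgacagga
C1QBP (chr17:5342524-5342574, minus strand): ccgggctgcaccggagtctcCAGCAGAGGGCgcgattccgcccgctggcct
The next set comes from peaks found in 1 list only. The sites in ECD, ANKRD12, IMMP2L and NIPBL were seen in control cells alone and that in MKRN2 in treated cells alone.
ECD (chr10:74918972-74919022, minus strand): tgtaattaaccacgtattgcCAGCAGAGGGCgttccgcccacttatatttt
ANKRD12 (chr18:9148113-9148163, minus strand): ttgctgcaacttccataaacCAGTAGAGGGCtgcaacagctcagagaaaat
IMMP2L (chr7:111126787-111126837, minus strand): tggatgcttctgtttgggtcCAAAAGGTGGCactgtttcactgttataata
NIPBL (chr5:36944881-36944931, minus strand): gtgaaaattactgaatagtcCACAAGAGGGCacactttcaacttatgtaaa
MKRN2 (chr3:12620394-12620444, plus strand): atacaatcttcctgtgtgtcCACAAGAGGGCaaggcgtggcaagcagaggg
The last set comes from host genes of interest for this cell line, for the study's own assays or for cohesin. STAT3, RUNX1, STAG2 and both NPRL3 matches lie in peaks of both lists.
STAT3 (chr17:40474913-40474963, plus strand): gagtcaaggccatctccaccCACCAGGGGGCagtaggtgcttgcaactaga
RUNX1 (chr21:36423688-36423738, plus strand): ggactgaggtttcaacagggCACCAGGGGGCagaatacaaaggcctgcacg
NPRL3 (chr16:147041-147091, minus strand): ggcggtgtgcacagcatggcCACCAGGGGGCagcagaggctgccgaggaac
NPRL3 (chr16:157185-157235, plus strand): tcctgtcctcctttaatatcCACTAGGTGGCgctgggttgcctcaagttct
STAG2 (chrX:123345346-123345396, plus strand): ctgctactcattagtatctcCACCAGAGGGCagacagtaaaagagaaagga
Matches of the class were spread over many spellings of the open letters. The commonest, CAGCAGAGGGC, made up 217 control matches (7.06%) and 147 PDS matches (6.89%), and it is the spelling printed for C1QBP and ECD. CACTAGAGGGC was the next in control peaks, with 5.79%, and CAGCAGGGGGC in PDS peaks, with 5.91%. Outside the searched letters, the base just before the match was C in 68.8% of control and 67.1% of PDS matches, and the base just after it was A in 58.4% and 52.6%. A CpG, the dinucleotide whose methylation can hinder CTCF, lay in the 17 bases around the match in 32.1% of control matches (interval 30.5 to 33.8%) and 35.2% of PDS matches (33.2 to 37.3%).

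The consensus was present in 3073 intronic non-G4 peaks of the control list (27.3%, interval 26.4 to 28.1%) and in 2132 of the PDS list (20.2%, 19.5 to 21.0%). Over all peaks of the lists the shares were 26.0% and 20.2%, so the class was close to its list in both. Windows of 200 bp placed 2 kb to either side of the same peaks held a match in 2.54% and 2.75% of cases. In 113268 intronic windows spaced every 10 kb and free of G4 motifs, which serve as a reference for intronic sequence, the share was 1.74%. The full consensus, with its further letters, is one that the study cites from earlier work. It was found in 14.3% of control and 9.85% of PDS intronic non-G4 peaks and in 0.266% and 0.285% of the windows 2 kb away. With 1 mismatch among the fixed letters the shares were 75.2% and 69.1%, but the windows 2 kb away then also matched in 35.9% and 38.2% of cases. A peak without a match only lacks these letters in this window.

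The consensus was more frequent among stronger peaks. In the control list it rose from 21.6% in the 25% of intronic non-G4 peaks with the smallest folds to 34.7% (interval 33.0 to 36.5%) in the 25% with the largest. In the PDS list the corresponding shares were 13.0% and 29.9% (28.1 to 31.6%). By intron the shares moved less. Control peaks in first introns carried it in 24.4% of cases (22.8 to 26.0%) and those in later introns in 28.0% (27 to 29.0%), and PDS peaks in 17.9% (16.5 to 19.4%) and 20.8% (19.9 to 21.8%).

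Matches concentrated near the peak centre. Among peaks that overlapped a peak of the other list, control peaks had 5.44 and 5.24 matches per 100 peaks in the 20 bp bins on either side of the centre, and PDS peaks had 3.70 and 3.95. Both lists had shoulders near 90 bp from the centre, where the control list had 2.45 and the PDS list 2.92 matches per 100 peaks on the side of higher coordinates. Read along the match, the shoulders within the central 200 bp were unequal. A match lay 50 bp or more before the peak centre in 26.7% of control peaks with the consensus (interval 25.1 to 28.3%) and 50 bp or more after it in 12% (10.9 to 13.2%). The same shares were 31.6% (29.6 to 33.6%) and 14.6% (13.2 to 16.1%) in the PDS list. The peak centre thus lay more often on the GGC side of the match than on the CA side. Over all peaks of the lists the split was 25.7% against 13.1% and 29.9% against 15.5%, but for intronic peaks with a G4 motif in the control list it was 19.9% (16.2 to 24.3%) against 21.0% (17.2 to 25.4%).

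**Figure D1:**
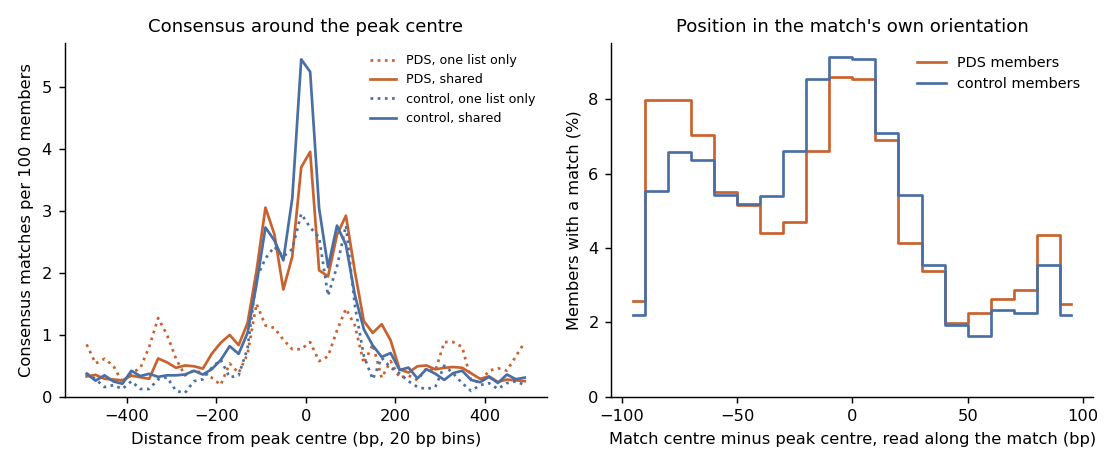
Left, consensus matches per 100 intronic non-G4 peaks in 20 bp bins against distance from the peak centre (bp), for peaks of the control (blue) and PDS (orange) list that overlap a peak of the other list (solid) or do not (dotted). Right, share of peaks with a match (%) against the position of the match centre relative to the peak centre, read along the match, in 10 bp bins. The shared peaks have a central maximum, the PDS peaks found in 1 list only do not, and the shoulder before the centre is larger than the one after it.

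PDS peaks that overlapped no control peak had another profile. They held 0.767 and 0.882 matches per 100 peaks in the central bins, and their largest values lay away from the centre, at -110 bp (1.5), 90 bp (1.42) and -330 bp (1.27) in genome coordinates. The consensus was present in 8.28% of them (interval 7.28 to 9.40%), compared with 24.2% (23.2 to 25.1%) of PDS peaks that overlapped a control peak and with 3.20% of windows 2 kb away. Of these 2608 peaks, 1553 (59.5%) had a control peak within 1 kb, and there the share with the consensus was 3.67% (2.84 to 4.73%). The 1055 without a control peak within 1 kb carried it in 15.1% of cases (13.0 to 17.4%). Control peaks that overlapped no PDS peak carried the consensus in 22.7% of cases (21.3 to 24.2%), against 29.0% (28.1 to 30%) of those that did, and 628 of 3187 (19.7%) had a PDS peak within 1 kb. Over the whole PDS list, 7025 peaks overlapped no control peak, and 2794 of them had none within 1 kb. The corresponding counts of the whole control list were 7268 and 5602. Nearness to a peak of the other list was thus not particular to the class.

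The orientation of the match was close to even with respect to the gene. It pointed along the host gene in 1414 of 2960 control peaks in which both strands were unambiguous (47.8%, interval 46.0 to 49.6%) and in 952 of 2049 PDS peaks (46.5%, 44.3 to 48.6%). The matches thus read against the gene slightly more often in both lists, as they did over all peaks within genes (47.6% and 45.8% along the gene). Overlapping peaks of the lists were merged into 14121 loci, of which 3541 had matches of a single direction. Neighbouring loci of this kind in the same gene formed 777 pairs. Both matches pointed the same way in 400 pairs (51.5%), towards each other in 186 (23.9%) and away from each other in 191 (24.6%). The median spacing was 60116 bp for pairs that faced each other, 38106 bp for those of the same direction and 28051 bp for those that faced apart.

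The comparison of the lists shows which sites were called in both conditions. In the control list, 3187 intronic non-G4 peaks had no overlapping PDS peak (28.3%, interval 27.4 to 29.1%), compared with 22% of all control peaks. In the PDS list, 2608 had no overlapping control peak (24.8%, 23.9 to 25.6%), compared with 21.4% of all PDS peaks. In both lists, peaks of the class lacked a counterpart more often than the list as a whole. With any peak within 1 kb counted as a counterpart, 2559 control peaks (22.7%, 21.9 to 23.5%) and 1055 PDS peaks (10.0%, 9.46 to 10.6%) remained without one, against 16.9% and 8.49% of the whole lists. Intronic peaks with a G4 motif differed most from the class. They lacked a counterpart in 7.04% of 1520 control peaks (5.86 to 8.44%) and in 9.23% of 1722 PDS peaks (7.96 to 10.7%). The classes also differ in peak size, since a motif anywhere under a peak removes it from the class. At the median, intronic G4 peaks spanned 540 bp (control) and 600 bp (PDS), and intronic non-G4 peaks 300 and 250 bp. How much of this contrast comes from peak size was not tested. Intergenic peaks without the motif were nearer, at 22.7% (21.8 to 23.6%) and 25.4% (24.5 to 26.4%).

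**Figure D2:**
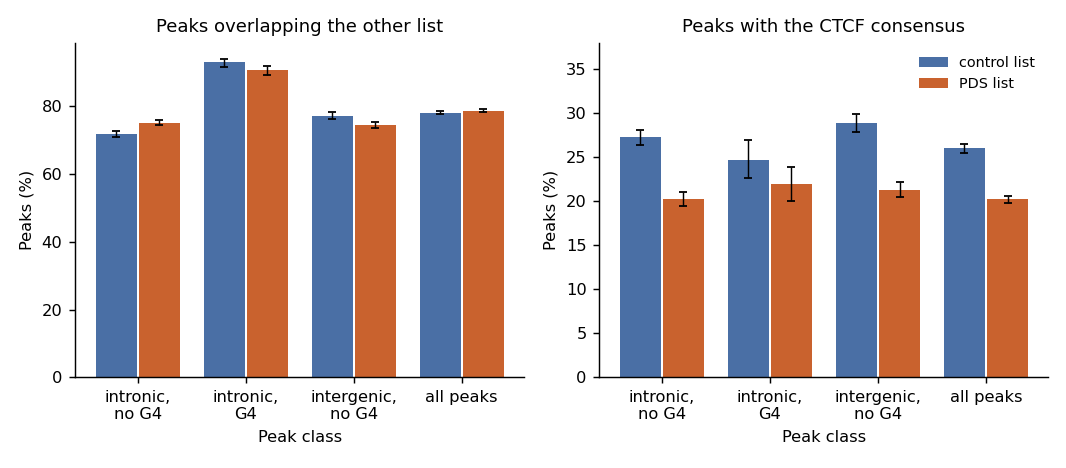
Left, share of peaks (%) that overlap a peak of the other list by at least 1 bp. Right, share of peaks (%) with the CTCF consensus in the central 200 bp. Bars show intronic peaks without and with a G4 motif, intergenic peaks without it and all peaks, in the control (blue) and PDS (orange) list, with Wilson 95% intervals. Intronic non-G4 control peaks had the lowest share overlapping the other list, 71.7%, and intronic G4 peaks the highest, 93.0%.

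Peak strength moved with this comparison. Of intronic non-G4 peaks, 42.8% (control) and 41.0% (PDS) ranked in the stronger 50% of their list by p-value, whereas 71.4% and 77.1% of intronic G4 peaks did. Within that stronger portion, 91.3% of intronic non-G4 control peaks (interval 90.5 to 92.1%) and 98.8% of intronic G4 control peaks (98.0 to 99.3%) overlapped a PDS peak. In the PDS list the shares were 99.4% (99.2 to 99.6%) and 99.8% (99.3 to 99.9%). In the weaker portion the shares were 57.1% (55.9 to 58.3%) and 78.4% (74.3 to 82.0%) for control peaks, and 58.4% (57.2 to 59.7%) and 60.5% (55.6 to 65.2%) for PDS peaks. The intervals of the intronic classes thus lay apart in the control list and overlapped in the PDS list. Width moved too. Peaks called in 1 list had a median width of 180 bp (control) and 100 bp (PDS), against 360 and 350 bp for those that overlapped the other list. The narrowest width the caller gave, 120 bp and 100 bp, was reached by 37.4% and 61.4% of the former. The part of rank and width in the difference between the lists was not tested.

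Base composition differed between the control and PDS peaks of the class. The GC content of the central 200 bp had a median of 48.5% (quartiles 41.5 and 55.5%) for control peaks and 51% (46.5 and 56.5%) for PDS peaks, both above the 40% (34 and 47%) of the evenly spaced intronic windows. A GC content below 40% was found in 2303 control peaks (20.4%) and in 473 PDS peaks (4.49%). The lower share in the PDS list was also found outside the class, with 13.8% and 3.32% over all peaks and 15.5% and 3.93% over intergenic peaks without a G4 motif. Of the control peaks of the class below 40% GC, here called AT-rich, 29.1% (interval 27.3 to 31%) overlapped a PDS peak, compared with 89.3% (88.2 to 90.2%) at a GC content of 50 to 60%. In the PDS list, 90.1% (87.0 to 92.4%) of peaks below 40% GC overlapped a control peak. From 40 to 50%, from 50 to 60% and from 60% up the shares of PDS peaks were 72.9%, 73.9% and 81.2%. Among control peaks of the stronger portion, 55.2% (51.5 to 58.9%) of those below 40% GC and 99.8% (99.4 to 99.9%) of those from 50 to 60% had a PDS counterpart.

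AT-rich control peaks without a PDS counterpart carried the consensus far more often than surrounding sequence. It was present in 377 of 1633 of them (23.1%, interval 21.1 to 25.2%), against 1.56% of the windows 2 kb to either side and 0.889% of reference intronic windows below 40% GC. In AT-rich control peaks that did overlap a PDS peak the share was 23.6% (20.5 to 26.9%), with an overlapping interval. Restricted to the 1332 with no PDS peak within 1 kb, the share was 25.7% (23.4 to 28.1%). The sites printed above from IMMP2L and NIPBL, in peaks with a GC content of 34.0% and 30.5%, are examples. The pattern was not limited to introns. Below 40% GC, intergenic control peaks without a G4 motif overlapped the PDS list in 38.1% of cases (35.4 to 40.8%), and all control peaks did in 33.9% (32.5 to 35.3%), and the interval of the intronic class lay below both. Since each list comes from the libraries of 1 condition, the treatment and the making of its libraries cannot be told apart as the source of a difference in base composition.

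**Figure D3:**
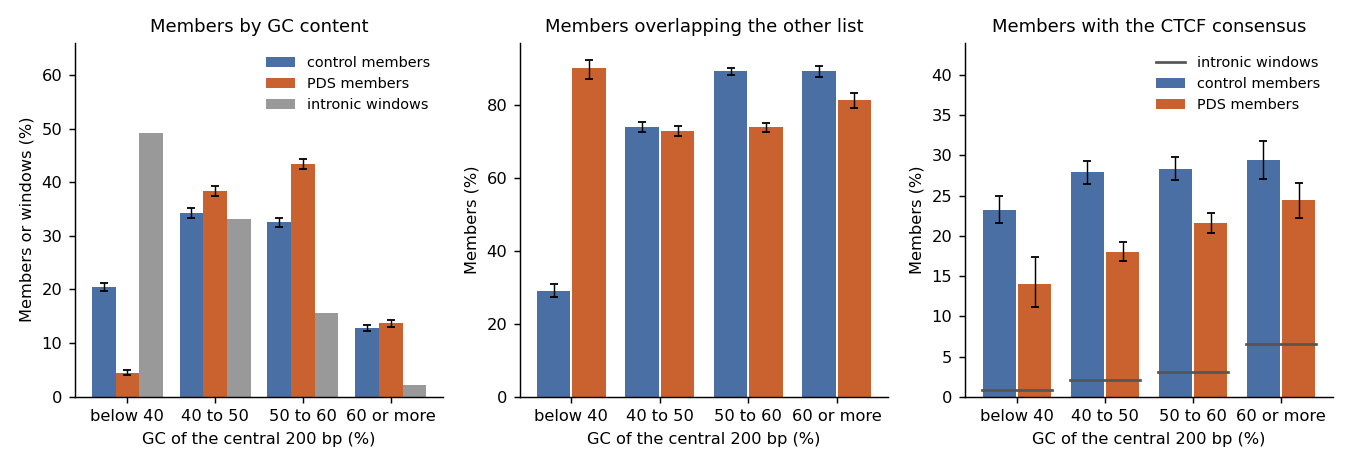
Intronic non-G4 peaks by GC content of the central 200 bp (%), in the control (blue) and PDS (orange) list with Wilson 95% intervals. Left, share of peaks in each GC range beside evenly spaced intronic windows (grey). Middle, share of peaks (%) overlapping the other list. Right, share of peaks (%) with the CTCF consensus, with grey lines for intronic windows of the same GC range. Below 40% GC, 29.1% of control and 90.1% of PDS peaks overlapped the other list, while both carried the consensus far above the windows.

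The absence of a G4 motif did not mean an absence of G-rich sequence. Runs of at least 3 G numbered 4 or more on 1 strand of the central 200 bp in 52.0% of control peaks of the class (interval 51.1 to 52.9%) and in 65.2% of PDS peaks (64.3 to 66.1%). This window reaches past the borders of narrow peaks, so that it can hold a motif that the peak itself does not overlap. Motifs with loops of up to 12 nt, just beyond the limit of the rule, were overlapped by 10.6% and 13.2% of the peaks. A G4 motif within 1 kb was found for 29.1% (28.3 to 29.9%) of control and 32.5% (31.6 to 33.4%) of PDS peaks, compared with 16.8% (16.6 to 17.1%) of the reference intronic windows. Control peaks flanked by such a motif overlapped the PDS list in 82.5% of cases (81.2 to 83.8%) and those with none within 1 kb in 67.3% (66.3 to 68.3%). In the PDS list the corresponding shares were 73.8% (72.3 to 75.3%) and 75.9% (74.9 to 76.9%). GC content moved with the flanking motifs, with a median of 46% in control and 49.5% in PDS peaks that had none within 1 kb, and its part was not tested.

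At sites called in both conditions, ranks of strength were compared. Of the one-to-one pairs of overlapping peaks, 7351 had both peaks in the class, with a median distance of 40 bp between centres. Across these pairs the folds in the lists had a Spearman's rho of 0.41 and the p-values one of 0.74, which describe the lists across peaks and carry no test. The fold percentile within the list was higher in treated than in control cells by a median of 4.73 points. For 5821 intergenic pairs without a G4 motif the median difference was 4.35 points, close to that of the class. For 1188 intronic pairs with a G4 motif it was -3.0 points, and for all 24616 pairs 0.682 points. The order depended on the ranked measure. By p-value percentile the median differences were 1.32 points for the class, 0.911 for the intergenic pairs, 3.88 for the intronic G4 pairs and 2.30 for all pairs. The fold percentile rose by 25 points or more in 25.9% of the class's pairs and fell by as much in 15.1%. Among intergenic pairs without the motif, 24.9% rose and 14.4% fell by this much. The shares were 16.6% and 25.5% among intronic G4 pairs and 21.2% and 19.7% among all pairs. A percentile depends on every other peak of its list, so that these values describe order and not binding. The class also changes with the exact peak borders. In 423 further pairs only the control peak, and in 240 only the PDS peak, belonged to it.

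**Figure D4:**
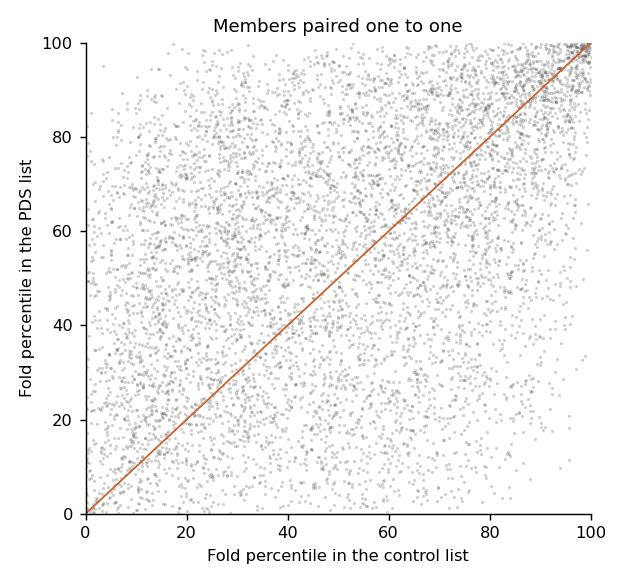
Fold percentile of 7351 one-to-one pairs of intronic non-G4 peaks in the control list (x axis) and in the PDS list (y axis), where 100 is the largest fold of a list and the line marks equal percentiles. The cloud is broad, with a rho of 0.41, and lies slightly above the line, with a median difference of 4.73 points.

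The peaks with the largest folds were mostly found in both conditions at different ranks. They were picked as the extremes of 1 list, and the folds of paired peaks had a rho of only 0.41. A lower rank in the other list is therefore likely from this choice alone, and the ranks do not measure a change with treatment. In CRYM, which encodes a thyroid hormone-binding protein, the control peak at chr16:21311881-21312180 had a fold of 202 and rank 4 of its list, and the PDS peak at chr16:21311901-21312150 a fold of 101 and rank 7. It lies in the first of 9 introns, 2373 bp from the gene start, and it led the class in both lists. The peak in intron 10 of TBC1D22B, a gene of the Rab GTPase-activating family, at chr6:37282681-37283040, ranked 11 in control cells and 1017 in treated cells. That in intron 9 of IQCG (chr3:197632921-197633280) ranked 29 and 354. In ZFR2 (chr19:3821821-3822300) the control peak ranked 44 while the PDS peak over it ranked 14710 and was no member of the class, since its centre fell into an exon. In SPATA2L (chr16:89766541-89766960) the control peak ranked 66 and lay under a PDS peak of 1650 bp, rank 20963, that also fell outside the class. Among peaks chosen from the PDS list, that in C1QBP, which encodes a mitochondrial matrix protein, ranked 15 there (chr17:5342401-5342850) and 922 in the control list. That in ATP6V0D1, a subunit of the vacuolar proton pump, ranked 41 (chr16:67499651-67500100) and 81, that in BPHL 34 and 591, and that in CA5A 23 and 7964.

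The strongest peaks found in 1 list only ranked lower by p-value in the PDS list. The leading control peaks by p-value with no PDS peak within 1 kb lay in ECD (chr10:74918761-74919240), rank 1838 by p, in ANKRD12 (chr18:9147901-9148320), rank 1899, and in IMMP2L, a mitochondrial peptidase gene (chr7:111126421-111127020), rank 2497. The PePr p-value of the peak in ECD was 2.62e-20. All 3 carried the consensus, with a GC content of 40.5%, 41.5% and 34.0%. The leading such PDS peaks lay in ESRRB, which encodes an orphan nuclear receptor (chr14:76922551-76923100), rank 13834, in MKRN2 (chr3:12620401-12620600), rank 13872, and in PFKP, the platelet phosphofructokinase (chr10:3162301-3162650), rank 14230. The PePr p-value of the peak in ESRRB was 3.42e-10. Only the peak in MKRN2 carried the consensus, and the 3 peaks had a GC content of 51%, 49.0% and 52.5%. The p-values of the lists rest on different libraries, so that only the ranks were compared.

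Within genes the peaks were spread over all introns. Among peaks with a spanning coding transcript, 25.6% of control (interval 24.8 to 26.4%) and 26.3% of PDS peaks lay in the first intron, near the 25.1% (24.9 to 25.4%) of the reference intronic windows. The second intron held 15.1% and 15.2%, against 16.3% of windows. Exons were closer than for windows. The median distance to the nearest exon edge was 3010 bp for control and 2886 bp for PDS peaks, compared with 6727 bp for the windows. An exon lay within 500 bp of 16.3% of control peaks (15.6 to 17%) and 16.7% of PDS peaks (16.0 to 17.4%) but of 9.87% of windows. Intronic peaks with a G4 motif were closer still, at 27.2% (25 to 29.6%) and 27.6% (25.5 to 29.8%). The upstream side of the intron held 49.4% and 49.7% of the peaks.

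Peaks on either side of the 1 kb limit of the rule were compared. The control list had 531 intronic non-G4 peaks from 1 to 2 kb from a gene end and the PDS list 539, and 79.7% and 71.8% of them overlapped the other list. Intronic peaks without the motif that lay within 1 kb numbered 672 and 690 and overlapped in 78.6% and 79.9% of cases. The consensus was found in 24.1% and 16.5% of the peaks just inside the rule and in 15.8% and 12.8% of those just outside.

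Of 20090 coding genes, 6738 (33.5%) held at least 1 of the 14121 loci, 3331 of them exactly 1 and 73 of them 10 or more. A locus was present in 2713 of 3659 genes longer than 100 kb (74.1%) and in 776 of 8466 genes shorter than 20 kb (9.17%). Both lists contributed to 7530 loci (53.3%), control peaks of the class alone to 3700 and PDS peaks alone to 2891. Since loci were built from members only, a locus of 1 list alone can lie under a peak of the other list that is outside the class, as in ZFR2 and SPATA2L. KAZN, which encodes a protein of cell junctions, held the most, 37 loci over 1225253 bp, of which 21 were in both lists. GSE1 followed with 36, the stereocilia cadherin gene CDH23 with 23 and BCR with 20. Then came ASIC2, an acid-sensing channel gene, with 18, LAMC3 and TBC1D5 with 17 each, and IQSEC1 and PI4KA with 16 each. In TBC1D5, 11 of the 17 loci held control members alone and 1 held PDS members alone, whereas in LAMC3 these numbers were 3 and 8.

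Per length, short genes led. Over all coding genes the density was 1.09 loci per 100 kb. The chemokine gene CXCL17 had 40.9 loci per 100 kb, ZNF683 38.79, IMPDH1, which encodes an enzyme of guanine nucleotide synthesis, 33.88, and RAB36 29.56. These genes held 5 or 6 loci each. BCR with 14.46 and ABL1 with 8.02 loci per 100 kb are the partners of the fusion gene that K562 cells carry, as background, in several copies. Their densities exceeded the average of coding genes, and so did those of LAMC3, downstream of ABL1 on chromosome 9, with 19.93, and of RAB36, beside BCR on chromosome 22. DNA copy number was not measured here, and its part in these counts was not tested. As a check of the cell line, no peak of either list lay in MTAP, CDKN2A or CDKN2B, which K562 is known to lack. The check is weak, since MTAP, the longest of them, spans only 135016 bp. At the average density of coding genes, few loci would lie there in any case.

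Of 23 transcription factor and enhancer host genes of blood cells, 17 held a locus, compared with 33.5% of all coding genes. They held 42 loci, 1.43 per 100 kb beside 1.09 over all coding genes, and 22 (52.4%) were in both lists, beside 53.3% of all loci. In NPRL3, whose introns hold the distal enhancers of the α-globin genes, there were 5 loci. The peak in intron 9 (chr16:146701-147250 in treated cells) ranked 50 of its list with a fold of 69.9 and 2086 in control cells with a fold of 60.7. The peak in intron 7 (chr16:156801-157450) ranked 894 and, in control cells, 6087. The other 3 loci of NPRL3 were of PDS peaks alone, with ranks from 19086 to 24358. RUNX1, a regulator of blood stem cells, held 12 loci over the 1216868 bp that the annotation gives it, with 5 in both lists. Its strongest by p-value (chr21:36423301-36423960) ranked 7584 by fold in control and 1928 in treated cells. HBS1L, the gene beside MYB, held 4 loci, 2 of them of control peaks alone. In MYB itself 1 locus, 2635 bp from the gene start, was called in both lists, with rank 8178 among control and 4655 among PDS peaks. ZFPM1, whose protein is a partner of GATA1, held 4 loci, and NFE2 held 3. No locus lay in GATA1, TAL1, LMO2, KLF1, MEIS1 or LYL1.

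Among 14 genes of CTCF and cohesin, 7 held 16 loci, 6 of them (37.5%) in both lists, compared with 53.3% of all loci of the class, a difference that was not tested. STAG2, a cohesin subunit gene, held 5, of which 4 were in both lists, and its paralogue STAG1 held 3. The cohesin regulator PDS5B held 3 loci and the cohesin loader NIPBL 2, none of which had a PDS peak over it. These 5 control peaks had a GC content from 27.5% to 45.5%. CTCF, SMC1A, SMC3, RAD21, WAPL, PDS5A and ESCO2 held none.

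For 6 genes that the study displayed or assayed, the peaks of the class were looked up as well. The peak in intron 20 of STAT3, a transcription factor gene, had a fold of 81.3 and rank 634 in control cells (chr17:40474501-40475220) and 56.7 and rank 134 in treated cells (chr17:40474501-40475350). These ranks do not repeat the study's ChIP-qPCR in STAT3. That assay measured a G4-prone site relative to a site in USP24, after a higher PDS dose for a longer time. The peak here overlaps no G4 motif, and whether it covers the assayed site was not checked. USP24, a deubiquitinase gene, held 4 loci. That in intron 24 ranked 23003 in control and 1420 in treated cells, that in intron 67 ranked 5659 and 17306, that in intron 21 ranked 3287 and 3819, and that in intron 1 was a control peak alone. SHANK1, a synaptic scaffold gene, held 3 loci and BDNF 1, a control peak of rank 27757. VPS4A and VEGFA held none. The 6 genes together had 2.34 loci per 100 kb, beside 1.09 over all coding genes, and 6 of 9 (66.7%) were in both lists, beside 53.3% of all loci.

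Very long genes had few peaks per length. The 20 such genes, with large introns, held 126 loci in 19 of them, 0.386 per 100 kb beside 1.09 over all coding genes, and 56 (44.4%) were in both lists, beside 53.3% of all loci. RBFOX1 held 16 loci, WWOX 12 and CTNNA2 and GPC5 11 each. FHIT, MACROD2, LRP1B, AUTS2 and PTPRD held 1 each, and DMD held none over 2241933 bp. IMMP2L held 3, all of control peaks alone.

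The class was densest on chromosomes with GC-rich introns. Chromosome 19, with an intronic GC content of 48.6%, had 18.7 control and 20.2 PDS peaks per Mb of intron, and chromosome 22 had 17.1 and 18.1. Chromosome 4, at 38.6%, had 5.50 and 4.12, chromosome 13 had 5.28 and 3.84, and chromosome X had 5.22 and 4.43. The PDS list had fewer peaks of the class than the control list on chromosomes 13 (ratio 0.73), 4 (0.75) and 18 (0.80), and more on chromosomes 21 (1.13), 16 (1.09) and 19 (1.08). The share of control peaks without a PDS counterpart ran from 14.4% on chromosome 19 to 40.4% on chromosome 13, and the share of PDS peaks without a control counterpart from 14.2% on chromosome 18 to 29.5% on chromosome 7. Densities and shares by chromosome were taken for the class alone. Whether the whole lists vary between chromosomes in the same way was not tested. The part of chromosome copy number in K562 cells was not tested either.

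**Figure D5:**
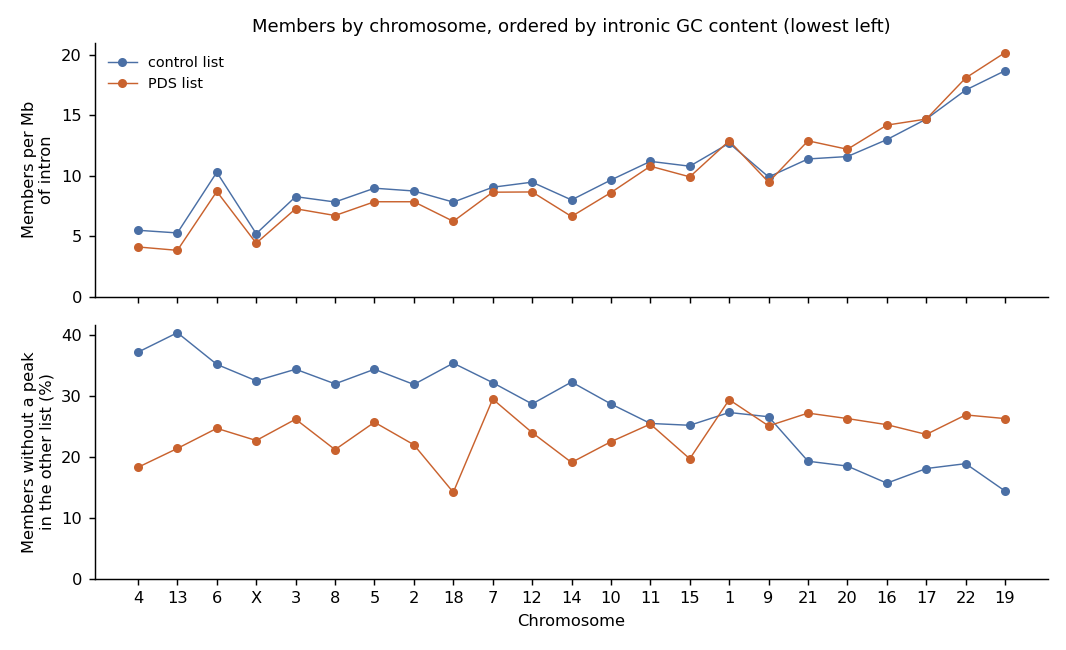
Intronic non-G4 peaks by chromosome, ordered from the lowest to the highest GC content of intronic sequence. Top, peaks per Mb of intron in the control (blue) and PDS (orange) list. Bottom, share of peaks (%) without an overlapping peak in the other list. Control peaks without a counterpart reach 40.4% on chromosome 13 and 14.4% on chromosome 19, and PDS peaks outnumber control peaks per Mb on chromosomes 19 and 22, at the right end.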

How the data were processed

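CTCF ChIP-seq of K562 cells, with and without 10 μM PDS for 24 h, was deposited as 1 peak list per condition. Per the labels and the study's methods, the authors aligned reads to hg19 with Bowtie2 2.2.3, filtered them with SAMtools and called peaks with PePr on both CTCF replicates over IgG, and the notes also name deepTools 2.0. The labels describe single-end reads and the methods paired-end reads, so that the read type is unsettled. The deposited lists give for each peak the fold enrichment over IgG (a ratio) and the p-value of PePr, which reaches at most 1.00e-05 in both lists, and a score and an adjusted p-value that were not used here. The files hold no read counts, so that depth per sample is unknown, and a second IgG sample of control cells was not analysed here. Wilson 95% intervals cover counting error only.

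Peaks were placed on GENCODE release 44 lifted to GRCh37, leaving out 25 control and 24 PDS peaks on other sequences. Host intron numbers were taken from a coding transcript that spans the peak centre. Peaks overlap if they share at least 1 bp. One-to-one pairs are overlapping peaks with no further overlapping peak in either list. Folds were ranked within each list, with rank 1 the largest, and p-values with rank 1 the smallest. Overlapping members were merged into loci for counts per gene. Python 3.11.15, numpy 2.4.6, pandas 2.3.3, scipy 1.17.1 and matplotlib 3.10.9 were used. On simulated sequences, the searches found 200 of 200 planted consensus matches and 200 of 200 planted G4 motifs, and called 0 of 200 sequences with 1 loop too long.

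The members and the gene lists were chosen with earlier results of these data known. Named genes are hosts of the 5 members with the largest folds in each list, of the 3 with the smallest p-values that lay over 1 kb from any peak of the other condition, the 10 genes with most loci, the 5 with most per 100 kb among those with at least 5, and the genes of the lists, of which some are not reported here. The evenly spaced intronic windows and the GC ranges were added after the data were seen. Alternatives covered peak stringency, exon annotation, distance from gene ends, G4 loops and flanks, the overlap that counts as shared, the form of the consensus, the host transcript and the ranked measure.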

Additional observations from a re-analysis of the deposited data

How the results depend on the processing

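Values are given for the control and then the PDS list. By construction the settings changed the number of members, from 11275 and 10532 to 11498 and 10746 with exons of coding genes alone, 9448 and 8658 at over 5 kb from gene ends, 10081 and 9141 with loops of up to 12 nt and 7994 and 7107 without a G4 motif within 1 kb. With exons of coding genes alone, the shares, medians and rank correlation stayed within their intervals, and the share of matches along the host gene did so under every setting tried. In the stronger 50% of each list by p-value, 4822 and 4313 peaks remained by construction, 91.3% and 99.4% overlapped the other list, 32.4% and 27% carried the consensus, the median distance to an exon was 2671 and 2562 bp, the width 540 and 550 bp, the GC content 51% and 53%, a G4 motif lay within 1 kb of 33.0% and 35.5%, 24.5% of control peaks lay in the first intron, and the rho of folds was 0.38. At over 5 kb from gene ends, the first intron held 21.7% and 22.4% and the exon distance was 4105 and 3961 bp, with an overlap of 70.5% and a GC content of 48% in the control list. With G4 loops of up to 12 nt excluded too, the overlap was 69.2% and 73.7%, the exon distance 3196 and 3069 bp, the GC content 47.5% and 50.5%, and the share with a G4 motif of that kind within 1 kb 41.0% and 46.3%. Without any G4 motif within 1 kb, the overlap was 67.3% in the control list, the first intron held 24.7% and 25%, the exon distance was 3506 and 3475 bp and the GC content 46% and 49.5%. An overlap of at least 50% of both peaks was reached by 57.9% and 60.7%, and 77.3% and 90.0% had a peak of the other list within 1 kb. The consensus was found in 33.5% and 27.1% of whole peaks, in 14.3% and 9.85% in its full form and in 75.2% and 69.1% with 1 mismatch. With the host transcript of most exons, 23.9% and 24.6% lay in the first intron. Ranked by p-value, pairs had a rho of 0.74. Where the construction of a setting does not show it, the cause was not tested. No paired analysis was possible because the replicates of a condition went into a single joint list, and for the same reason none of them could be left out. The lists do not show how far replicates differ, or how near a site called in 1 list came to the calling threshold in the other.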
